A study of Rattus norvegicus with 4 samples.

Results

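The insulin-like growth factor (IGF) system was followed through 10 genes of the 25399 in the gene table, chosen by name. They were the ligands Igf1 and Igf2, the receptors Igf1r and Igf2r, and the binding proteins Igfbp2, Igfbp3, Igfbp4, Igfbp5, Igfbp6 and Igfbp7, and all 10 symbols were found. The series sets sciatic nerve beside dorsal root ganglion, the cluster of sensory neuron bodies next to the spinal cord, with Schwann cells (the glia of peripheral axons) as its subject. Cells of Sprague Dawley rats, of a sex the labels do not determine, were sequenced in 4 groups of 1 droplet library each: Adult-SN (sciatic nerve, 8 weeks), P1-SN (sciatic nerve, postnatal day 1), Adult-DRG (ganglion, 8 weeks) and P1-DRG (ganglion, postnatal day 1). No allele or agent is given for any group, and the number of animals behind a library is not given in the sources used here. The labels' growth protocol describes cultured Schwann cells in medium with serum, without saying whether the sequenced cells passed through culture.

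All cells sat in a single table whose barcodes ended in a number from 1 to 4. No label or file used here links such a number to a group, so the libraries carry that number as their name here, and neither tissues nor ages were compared. Cells of 1 library are not replicates, so no difference below carries a test. Every interval is an exact 95% interval (Poisson for counts, Clopper-Pearson for shares and ratios) and covers counting error only. Where a class held 0 UMIs of a gene, the level that 3 UMIs would give there is printed as the limit.

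Igf1 and Igf2 are small secreted peptides related to insulin. Both signal mainly through Igf1r, a receptor tyrosine kinase, while Igf2r binds Igf2 and carries it to lysosomes for breakdown. The binding proteins hold the ligands outside the cell and lengthen, block or release their action, and Igfbp7 binds them only weakly. In peripheral nerve the ligands are known to act on Schwann cell survival and on the growth of sensory axons.

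Promoter windows are shown for both ligands and for Igfbp2 and Igfbp5, which are the nearest coding neighbours of each other on chromosome 9 and lie on opposite strands, yet were highest in different cell classes of library 2. The windows are the 250 bases before a RefSeq start on build GRCr8, written 5′ to 3′ on the strand of the gene. Igf1 lies at chr7:24172282-24172531 on the plus strand, and the Igf2 windows at chr1:207253981-207254230 for the first listed start and chr1:207250476-207250725 for the second, both on the minus strand. Igfbp2 lies at chr9:81864561-81864810 on the plus strand and Igfbp5 at chr9:81914188-81914437 on the minus strand. Capitals mark a TATA box core (TATAAA), a GC box (GGGCGG) or an E-box (CACGTG), each searched on both strands.
Igf1: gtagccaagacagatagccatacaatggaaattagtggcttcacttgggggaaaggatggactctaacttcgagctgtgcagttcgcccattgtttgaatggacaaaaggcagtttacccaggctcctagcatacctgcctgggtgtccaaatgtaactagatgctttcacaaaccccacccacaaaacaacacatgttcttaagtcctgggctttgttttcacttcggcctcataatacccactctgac
Igf2 first start: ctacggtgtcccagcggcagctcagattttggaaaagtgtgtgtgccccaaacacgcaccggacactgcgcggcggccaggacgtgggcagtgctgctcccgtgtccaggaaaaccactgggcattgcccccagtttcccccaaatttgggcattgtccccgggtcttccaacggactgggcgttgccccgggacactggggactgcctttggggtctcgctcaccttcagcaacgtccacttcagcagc
Igf2 second start: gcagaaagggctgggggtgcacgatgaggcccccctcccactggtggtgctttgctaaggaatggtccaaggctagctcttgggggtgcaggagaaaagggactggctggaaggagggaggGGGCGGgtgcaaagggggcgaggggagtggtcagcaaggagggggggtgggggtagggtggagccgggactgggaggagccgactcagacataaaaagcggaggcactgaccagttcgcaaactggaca
Igfbp2: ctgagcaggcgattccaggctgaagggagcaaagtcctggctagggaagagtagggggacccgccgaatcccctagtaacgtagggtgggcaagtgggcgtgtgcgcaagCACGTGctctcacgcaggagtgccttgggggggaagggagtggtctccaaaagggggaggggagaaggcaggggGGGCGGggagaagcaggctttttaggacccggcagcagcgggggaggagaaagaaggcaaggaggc
Igfbp5: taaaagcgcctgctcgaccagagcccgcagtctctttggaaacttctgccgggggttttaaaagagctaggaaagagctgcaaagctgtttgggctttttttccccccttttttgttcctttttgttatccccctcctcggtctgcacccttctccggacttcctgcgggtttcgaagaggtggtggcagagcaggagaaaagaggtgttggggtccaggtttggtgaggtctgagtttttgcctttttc

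The Igfbp2 window held 1 GC box and 1 E-box, and the second Igf2 window held 1 GC box. The Igf1, first Igf2 and Igfbp5 windows held none of the 3 letter strings. Among 33469 windows of all genes, 12.9% held the TATA string, 30.5% the GC box and 5.59% the E-box. Of the members not printed, the Igf2r window held 2 GC boxes and 2 E-boxes, the Igfbp7 window 4 GC boxes, the Igf1r window 1 of each of these and the Igfbp4 window 1 TATA string, whereas the Igfbp3 and Igfbp6 windows held none. The GC content of the windows ran from 46.8% for Igf1 and 51.6% for Igfbp5 to 79.6% for Igf1r.

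Barcodes with fewer than 500 genes or more than 20% mitochondrial transcripts were removed, which left 33175 of 41444 barcodes. The libraries kept 9828, 8426, 6473 and 8448 cells with median depths of 6617, 1645.5, 4639 and 7554.5 UMIs (unique molecular identifiers, 1 per captured transcript) in libraries 1 to 4. Of the barcode sequences, 190 occurred in 2 libraries and 1 in 3, and 121 of them were kept in more than 1 library. Each cell was given a class from marker genes if that class led the next by 0.1 on a score from 0 to 1, which classed 28267 cells. Such a class is a range and not a type: 1769 classed cells lay within 0.05 above that limit and 1478 cells within 0.05 below it. Library 3 was the least resolved, with 61.3% of its cells classed.

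Glia-like cells were available in all libraries (239, 1251, 295 and 6044 cells in libraries 1 to 4), as were endothelial-like cells (109, 559, 169 and 64), macrophage-like cells (1985, 153, 80 and 97) and fibroblast-like cells (6538, 408, 1065 and 1100). Mural-like cells, the contractile cells of vessel walls, were available in libraries 2 to 4 (154, 128 and 107), neuron-like cells in libraries 2 and 3 (4959 and 2094) and perineurial-like cells, the sheath of nerve fascicles, in library 1 (327). Single markers are given next as a description and not as a check, because they had served to name the classes. C1qa, a complement gene of macrophages, had 3591 to 6014 CPM (UMIs of a gene per 1000000 UMIs of the class) in macrophage-like cells, against 0.337 to 36.1 CPM in fibroblast-like cells. Cdh5, a junction protein of endothelium, had 396 to 1055 CPM in endothelial-like cells and 3.06 to 20.4 CPM in fibroblast-like cells. Fibroblast genes were found at low levels in other classes: Col1a1, a collagen chain, stood in glia-like cells at 2.8%, 2.34%, 5.96% and 9.49% of its fibroblast-like level in libraries 1 to 4. The lowest such percentage of a member in glia-like cells was 2.12% (Igfbp4), 0.857% (Igf2), 0.0939% (Igf2) and 0.409% (Igf1) in libraries 1 to 4. RNA of fibroblast-like cells that is free in the droplets would give its genes a like percentage within a class. The Col1a1 percentage is therefore given beside some members for comparison and not as the level of free RNA, and how much of it is the own Col1a1 of a class was not tested.

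Glia-like cells were divided by the same rule into myelinating Schwann-like cells (75, 139, 149 and 1553 cells in libraries 1 to 4) and other glia-like cells (164, 1112, 146 and 4491). Among the other glia-like cells, 528 in library 2 and 21 in library 3 were led by satellite glia markers. Fabp7, a fatty acid binding protein of satellite glia, had 37.4 and 2.49 CPM in myelinating Schwann-like cells of libraries 2 and 3, against 972 and 1121 CPM in satellite glia-like cells. Tyrp1, a melanocyte gene, reached 2155 CPM in satellite glia-like cells of library 2 and had 0 UMIs in those of library 3. The melanocyte genes Pmel and Mlana had 17.2 CPM and 0 UMIs in the library 2 cells, so 2 of the 3 melanocyte markers found in the gene table were present there. Their part in the satellite glia-like values of library 2 was not tested. Nonmyelinating Schwann-like cells of library 2 also had Fabp7 at 117 CPM and Tyrp1 at 800 CPM. Glia-like cells given to no subclass had 369 and 1719 CPM of these genes there. How far the member values of both groups come from cells like the satellite glia-like ones was not tested. In library 3, Kcnj10 and Slc1a3 of the 6 satellite glia markers had 0 UMIs. A further 39 cells of library 4 passed the same rule but held 0 Fabp7 UMIs, and they are not called satellite glia-like here.

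**Figure D1:**
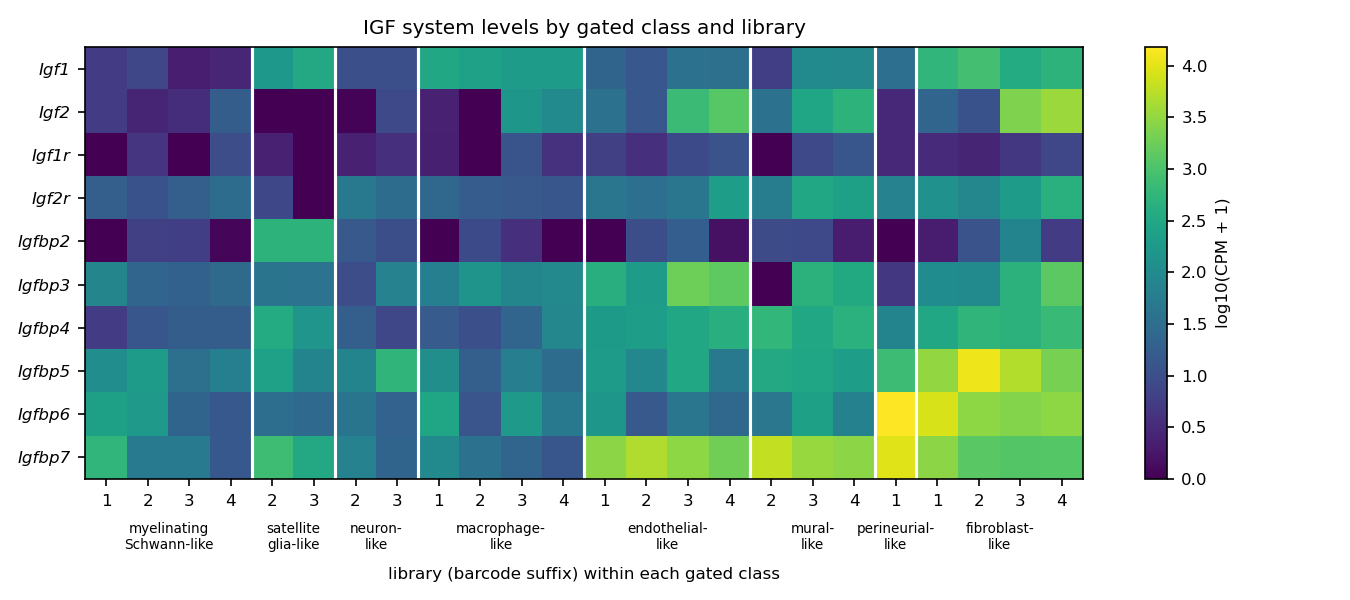
Colour gives the level of each member as log10(CPM + 1) in each cell class, with the library number under each column. The brightest cells of the map are Igfbp6 and Igfbp7 in perineurial-like cells of library 1 (15108 and 9617 CPM), Igfbp5 in fibroblast-like cells of library 2 (11794 CPM) and Igfbp6 in those of library 1 (8363 CPM), and the left columns, myelinating Schwann-like cells, are dark for most members.

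Igf1 was highest in fibroblast-like cells of every library, and with glia kept as 1 class macrophage-like cells came next. Macrophage-like cells had 307, 249, 195 and 199.8 CPM in libraries 1 to 4, against 572, 839, 369 and 501 CPM in fibroblast-like cells. The intervals of the 2 classes did not overlap in any library. After thinning every cell to 2000 UMIs, an Igf1 UMI was found in 41.9%, 36.2%, 31.3% and 17.9% of macrophage-like cells and in 56.2%, 58.4%, 47.8% and 54.9% of fibroblast-like cells. Without thinning the shares were 55.7%, 47.7%, 51.2% and 77.3% at median depths of 3854, 2922, 3736.5 and 13762 UMIs in macrophage-like cells, and 87.3%, 86.0%, 66.5% and 93.4% at 7829.5, 6862, 6149 and 13370.5 UMIs in fibroblast-like cells. The class with the lowest Igf1 level in each library had thinned shares of 6.67% (T or NK-like cells, library 1), 1.46% (mural-like, library 2), 5% (neutrophil-like, library 3) and 0.417% (glia-like, library 4).

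Among glia, Igf1 was low in myelinating Schwann-like cells. In libraries 2 and 3 it was higher in satellite glia-like cells and also in the other glia-like cells. Myelinating Schwann-like cells held 1, 4, 1 and 25 Igf1 UMIs in libraries 1 to 4, or 4.35, 6.8, 1.25 and 1.85 CPM. Satellite glia-like cells had 167 CPM (interval 157 to 177) in library 2 and 331 CPM (216 to 485, from 26 UMIs) in library 3. In library 2 that was 19.9% of the fibroblast-like Igf1 level, while Col1a1 stood at 1.88% of its own, and in library 3 it was 89.7% against 1.87%. Nonmyelinating Schwann-like cells had 94.0 CPM in library 2, with Fabp7 at 117 CPM, and 149 CPM (9 UMIs) in library 3, with Fabp7 at 165 CPM. Glia-like cells given to no subclass had 83.6 and 171 CPM in these libraries. Library 4 had almost no Igf1 in glia of any subclass. Nonmyelinating Schwann-like cells, 1071 in number, had 1.84 CPM there, or 0.367% of the fibroblast-like level beside 10.8% for Col1a1. In library 1, 16 of the 23 Igf1 UMIs of glia-like cells came from 3 cells.

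The other classes held less Igf1. Endothelial-like cells had 21.1, 12.7, 35.4 and 34.2 CPM in libraries 1 to 4. Mural-like cells had 5.07, 94.8 and 93.4 CPM in libraries 2 to 4, and perineurial-like cells 32.9 CPM in library 1. Neuron-like cells had 9.51 and 9.56 CPM in libraries 2 and 3.

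**Figure D2:**
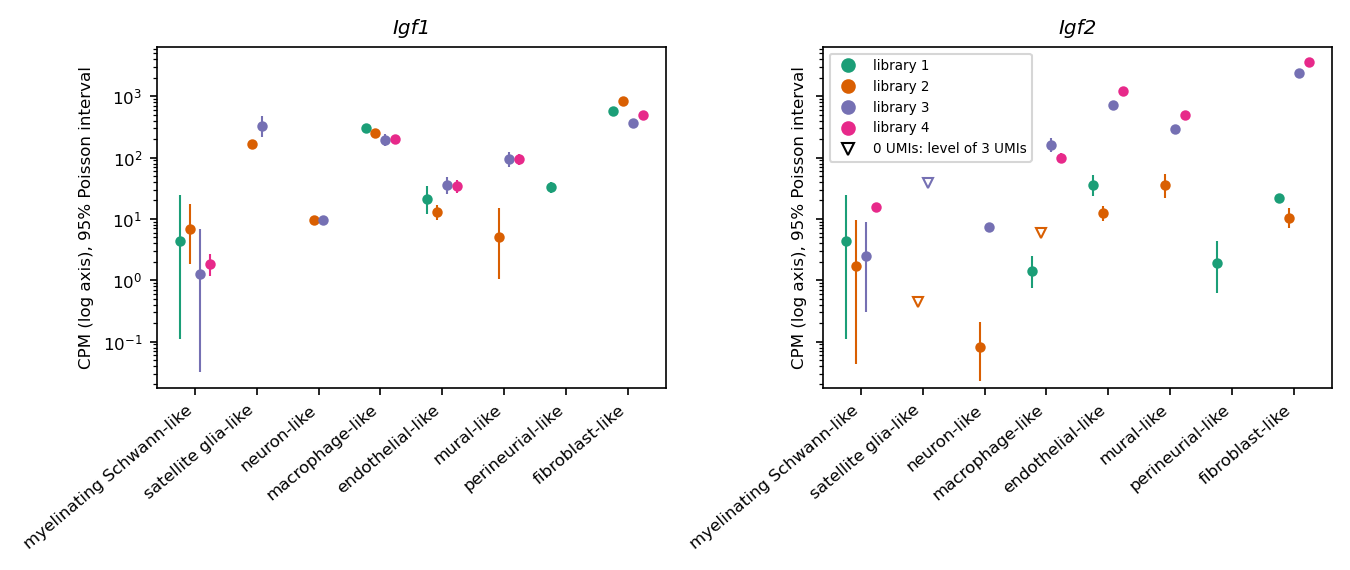
Points give Igf1 (left) and Igf2 (right) in CPM on a log axis by cell class, coloured by library, with exact 95% Poisson intervals and open triangles at the level of 3 UMIs where a class held 0. Igf1 in fibroblast-like cells stayed between 369 and 839 CPM in the 4 libraries, while Igf2 stood at 22.2 and 10.4 CPM in libraries 1 and 2 and at 2387 and 3558 CPM in libraries 3 and 4.

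Igf2, the other ligand and an imprinted gene, stood far apart between libraries in fibroblast-like cells, whereas Igf1 stayed between 369 and 839 CPM there. Endothelial-like cells had 35.6, 12.5, 714 and 1217 CPM in libraries 1 to 4. Mural-like cells had 35.5, 290.0 and 495 CPM in libraries 2 to 4. In fibroblast-like cells, library 1 had 22.2 CPM (21.0 to 23.4), library 2 had 10.4 CPM (7.09 to 14.8), library 3 had 2387 CPM (2352 to 2422) and library 4 had 3558 CPM (3529 to 3587). Endothelial-like and fibroblast-like cells thus had lower values in libraries 1 and 2 than in libraries 3 and 4. Mural-like cells, without a value for library 1, had less Igf2 in library 2 than in libraries 3 and 4, and the same held for their Igf1. Because each library comes from a different group, library, tissue and age cannot be told apart in this division.

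Endothelial Igf2 in libraries 3 and 4 was 29.9% and 34.2% of the fibroblast-like level, while Col1a1 stood at 1.61% and 1.32%. An Igf2 UMI was found in 58.8% and 81.7% of thinned endothelial-like cells of libraries 3 and 4, against 66.7% and 98.4% of fibroblast-like cells. The lowest class in each of these libraries had 0% (neutrophil-like cells, library 3) and 3.17% (glia-like cells, library 4). Glia held very little: myelinating Schwann-like cells had 4.35, 1.7, 2.49 and 15.9 CPM in libraries 1 to 4, and the last of these was 0.448% of the fibroblast-like level. Satellite glia-like cells of library 2 held 0 UMIs, which allows up to 0.438 CPM. Mural-like Igf2 stood at 12.1% and 13.9% of the fibroblast-like level in libraries 3 and 4, beside 16.1% and 2.15% for Col1a1, so in library 3 it was below the Col1a1 percentage. Igfbp5 and Igfbp6 stood at 5.83% and 9.38% in the same cells of library 3, below Igf2. Macrophage-like cells had 162 and 100.3 CPM in libraries 3 and 4, with a UMI in 6.25% and 39.2% of cells before thinning and in 4.48% and 7.37% after.

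The makeup of the ligands in fibroblast-like cells differed between the same libraries. Of the Igf1 and Igf2 UMIs, Igf2 was 3.73% (interval 3.53% to 3.93%) for library 1, 1.23% (0.837% to 1.74%) for library 2, 86.6% (86.1% to 87.1%) for library 3 and 87.7% (87.4% to 87.9%) for library 4. These are shares of 3′ counts, in which each transcript gives a single tag whatever its length. Binding protein UMIs outnumbered ligand UMIs in fibroblast-like cells of every library, by 24.8, 19.7, 3.52 and 2.02 to 1 in libraries 1 to 4. In macrophage-like cells there were 1.85, 0.907, 1.03 and 0.891 binding protein UMIs per ligand UMI.

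Within library 3 the ligands were divided in part between fibroblast-like cells, with many cells holding both. Of the thinned cells, Igf2 was found in 49.9% of the 499 with an Igf1 UMI (interval 45.4% to 54.4%) and in 82.1% of the 546 without one (78.6% to 85.2%). The binding proteins divided along with them. Igfbp3 was found in 58.9% of cells with Igf1 and 26.2% of cells without, and Igfbp7 in 86.2% and 48.9%. Igfbp5 went the other way, at 26.7% of cells with Igf1 and 68.9% of cells without. Sorted by Igf2 instead, Igfbp5 was found in 68.6% of the 697 cells with an Igf2 UMI and in 8.91% of the 348 cells without, and Igfbp7 in 52.5% and 95.1%. In library 4, Igf2 was found in 98.1% of cells with Igf1 and 98.8% of cells without. Since nearly all cells held it, detection could not show whether the ligands were divided there.

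**Figure D3:**
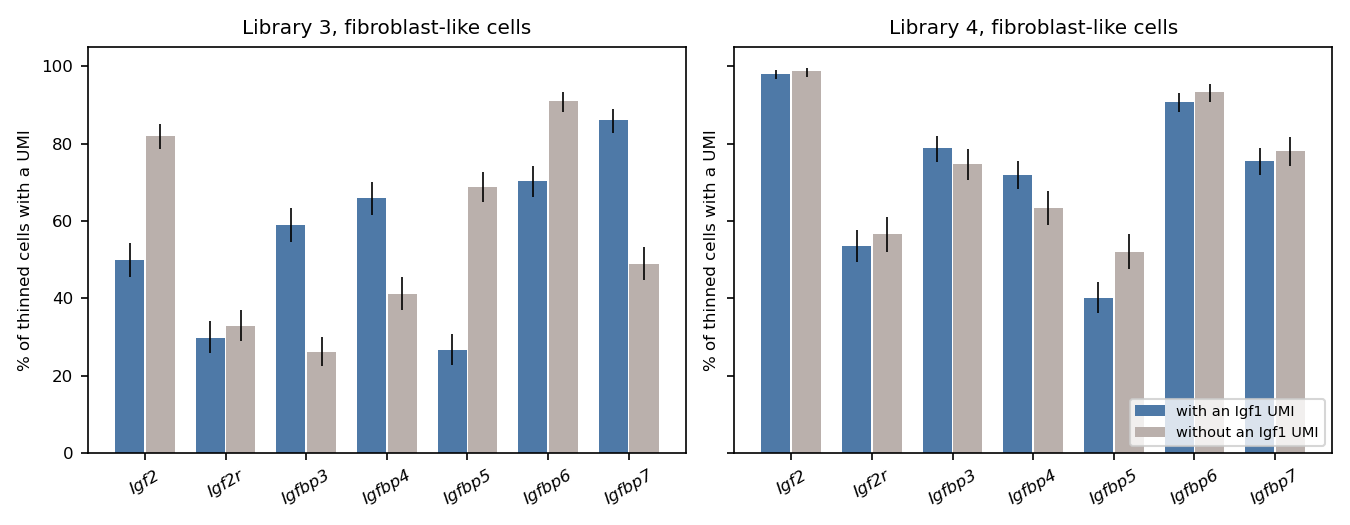
Bars give the percentage of fibroblast-like cells, each thinned to 2000 UMIs, in which a second member was found, for cells with an Igf1 UMI and cells without one, with exact 95% intervals, in libraries 3 and 4. In library 3 the bars for Igf2 (49.9% and 82.1%) and Igfbp5 (26.7% and 68.9%) are lower in cells with Igf1 and those for Igfbp3 and Igfbp7 are higher, while in library 4 Igf2 is at 98.1% and 98.8%.

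Fibroblast-like cells also fall into subsets named by genes outside the system, picked after values had been seen. In library 3, 244 cells with Pi16 or Tnfrsf11b, markers of the adventitial kind of fibroblast, had 95.6 CPM Igf1, 3643 CPM Igf2, 109 CPM Igfbp3 and 9494 CPM Igfbp5. The 237 cells with Myoc or Thbs4 had 764 CPM Igf1, 612 CPM Igf2, 1188 CPM Igfbp3 and 512 CPM Igfbp5. So these subsets differed in the same 4 members as the cells with and without Igf1. In every library the Pi16 or Tnfrsf11b cells had more Igfbp5 than the Myoc or Thbs4 cells: 8819, 27099.5, 9494 and 7735 CPM, against 1255, 1363, 512 and 1014 CPM in libraries 1 to 4. The Igf1 order was not shared, since the Pi16 or Tnfrsf11b cells had 685 and 1164 CPM and the Myoc or Thbs4 cells 434 and 584 CPM in libraries 1 and 2. In library 1 another subset, of 971 cells with Ucma, Gdf10 or Cilp, had 13157 CPM Igfbp6 and 5836 CPM Igfbp7, above both other subsets for each gene.

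Igf1r was scarce in these counts. It lay between 0 and 12.2 CPM in the glia-like, neuron-like, macrophage-like, endothelial-like, mural-like, perineurial-like and fibroblast-like cells of any library. Its largest count was 591 UMIs over 6044 glia-like cells of library 4, or 11.5 CPM (interval 10.6 to 12.5), against 6.82 CPM (5.61 to 8.21) in fibroblast-like cells. A UMI was found in 9.05% of those glia-like cells at a median depth of 7359 UMIs, and in 2.13% after thinning. Within glia of library 4, myelinating Schwann-like cells had 8.64 CPM and nonmyelinating Schwann-like cells 13.9 CPM. In every library the intervals of the highest and the second class overlapped, so the leading class for Igf1r could not be read at this depth.

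Igf2r, which is also the receptor that sorts lysosomal enzymes, had a clear pattern. It was lower in glia than in fibroblast-like cells of every library: glia-like cells had 12.9, 7.06, 13.4 and 17.7 CPM, and fibroblast-like cells 128, 84.2, 197 and 449 CPM in libraries 1 to 4. Mural-like cells had 59.1, 316 and 234 CPM in libraries 2 to 4 and were the highest class in library 3. Endothelial-like cells had 42.2, 32.6, 42.3 and 217 CPM in libraries 1 to 4. Neuron-like cells had 47.3 and 29.1 CPM in libraries 2 and 3, against 7.06 and 13.4 CPM in glia-like cells. Among glia of library 4, Igf2r had 28.5 CPM (interval 25.7 to 31.5) in myelinating Schwann-like cells and 10.2 CPM (8.21 to 12.4) in nonmyelinating Schwann-like cells. At 6.34% and 2.26% of the fibroblast-like level, these values were below the 8.08% and 10.8% at which Col1a1 stood and above the 0.448% and 0.518% of Igfbp6.

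Igfbp2, a binding protein with a preference for Igf2, was the one member that stood highest in glia, in libraries 1 and 2. Glia-like cells had 65.8, 368, 59.0 and 0.156 CPM in libraries 1 to 4, against 1.06, 10.8, 77.1 and 4.24 CPM in fibroblast-like cells. In libraries 2 and 3 the level was highest in satellite glia-like cells and low in myelinating ones. Glia-like cells given to no subclass lay between, at 179 and 88.1 CPM in these libraries. Nonmyelinating Schwann-like cells had 55.1 CPM in library 2 and 16.5 CPM (1 UMI) in library 3. Myelinating Schwann-like cells had 5.1 CPM (3 UMIs) and 4.98 CPM (4 UMIs) in libraries 2 and 3, against 508 CPM (interval 492 to 526) and 497 CPM (353 to 679) in satellite glia-like cells. The library 3 cells had that level with Tyrp1 at 0 UMIs. An Igfbp2 UMI was found in 42.0% of thinned satellite glia-like cells of library 2, and in 1.57% of its macrophage-like cells, the lowest class. In library 1, 42 of the 51 Igfbp2 UMIs of glia-like cells came from 3 cells led by satellite glia markers, and 9 from 1 other cell.

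Igfbp2 was nearly absent from glia of library 4, with 8 UMIs in 6044 cells, 0 of them in the 39 cells that passed the satellite rule without Fabp7. In library 3 the 575 Igfbp2 UMIs of fibroblast-like cells came from 7.42% of those cells, and 100% of them from the top 10% of cells by Igfbp2. The thinned satellite glia-like cells of library 2 with an Igf1 UMI held Igfbp2 in 50.4% (of 129 cells) and those without in 39.3% (of 397 cells), so both genes were found together in many of these cells.

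Igfbp3, the main carrier of IGFs in blood, was highest in endothelial-like cells of every library, although in library 4 the interval overlapped that of fibroblast-like cells. Endothelial-like cells had 418, 207, 1792 and 1375 CPM in libraries 1 to 4, against 108, 98.0, 491 and 1346 CPM in fibroblast-like cells. Both classes had their larger values in libraries 3 and 4, as for Igf2. Mural-like cells held 0 UMIs in library 2, which allows up to 5.07 CPM, and had 491 and 348 CPM in libraries 3 and 4. Macrophage-like cells had 63.9, 145, 82.6 and 92.3 CPM in libraries 1 to 4. Neuron-like cells differed between their libraries, with 8.79 CPM in library 2 and 69.1 CPM in library 3. Glia-like cells had 197, 46.9, 30.6 and 26.5 CPM in libraries 1 to 4, and in library 1 the top 10% of glia-like cells held 92.2% of the Igfbp3 UMIs.

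Mural-like cells of library 3 held subsets that differed in the members, again picked after values had been seen. The 59 cells with Rgs5, Kcnj8 or Abcc9, genes of pericytes, had 1098 CPM Igfbp3, 257 CPM Igf1 and 35.8 CPM Igf2. The 39 cells with Myh11 or Acta2, genes of smooth muscle, had 116 CPM Igfbp3, 19.3 CPM Igf1 and 575 CPM Igf2. Igf2 and Igfbp3 thus stood in opposite orders within mural-like cells of this library.

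Igfbp4, a binding protein that mostly holds IGFs back, was shared by mural-like, endothelial-like and fibroblast-like cells. Mural-like cells had 584, 314 and 469 CPM in libraries 2 to 4, and in library 2 their interval overlapped that of fibroblast-like cells. Endothelial-like cells had 190.0, 209.8, 315 and 409 CPM in libraries 1 to 4. Fibroblast-like cells had 305, 544, 493 and 667 CPM in libraries 1 to 4. In glia it followed Igf1 and Igfbp2: myelinating Schwann-like cells had 11.9 and 16.2 CPM in libraries 2 and 3, against 376 and 153 CPM in satellite glia-like cells. In thinned satellite glia-like cells of library 2, Igfbp4 was found in 58.8% of the 221 cells with an Igfbp2 UMI and in 43.3% of the 305 cells without one.

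Igfbp5, a binding protein that also attaches to extracellular matrix, was highest in fibroblast-like cells of every library. Myelinating Schwann-like cells had 109, 192, 33.6 and 62.3 CPM in libraries 1 to 4, against 3119, 11794, 4971 and 2099 CPM in fibroblast-like cells. It was spread unevenly among the fibroblast-like cells, since the top 10% of them held 60.1%, 52.1%, 62.7% and 60.3% of its UMIs. The myelinating level was 3.49%, 1.63%, 0.677% and 2.97% of the fibroblast-like one. Col1a1 stood in the same cells at 2.53%, 5.28%, 5.31% and 8.08%, so Igfbp5 in myelinating Schwann-like cells was below the Col1a1 percentage in libraries 2 to 4. Igf2 stood lower still in those cells of libraries 3 and 4, at 0.104% and 0.448%.

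Igfbp5 was higher in neuron-like than in glia-like cells of library 3 and lower in those of library 2. Neuron-like cells had 544 CPM in library 3 (interval 539 to 550), against 50.0 CPM in glia-like cells, and 76.3 CPM in library 2, against 212 CPM in glia-like cells. A UMI was found in 72.1% of the neuron-like cells of library 3, at a median depth of 36025.5 UMIs, and in 46.2% after thinning. In library 2 the shares were 18.7% at a median depth of 1133 UMIs and 11.8% among the 1016 cells deep enough to thin. In neutrophil-like cells, the lowest class of library 3, the shares were 11.1% and 5%, and in macrophage-like cells, the lowest of library 2, they were 3.92% and 2.36%. Within library 3, the 780 neuron-like cells with Mrgprd, P2rx3 or Lpar3, genes of nonpeptidergic pain neurons, had 825 CPM, and the 657 cells with Calca or Tac1, genes of peptidergic pain neurons, had 214 CPM. In library 2 the same subsets had 67.8 and 87.4 CPM.

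Igfbp6, a binding protein with a strong preference for Igf2, reached the highest level of any member in these counts. Perineurial-like cells of library 1 had 15108 CPM (interval 14960.5 to 15257), against 8363 CPM in fibroblast-like cells. A UMI was found in 100% of thinned perineurial-like cells, 95.3% of thinned fibroblast-like cells and 24.1% of thinned endothelial-like cells, the lowest class. Fibroblast-like cells of libraries 2 to 4 had 2968, 2516 and 2900.4 CPM. Glia-like cells had 216, 39.2, 19.4 and 15 CPM in libraries 1 to 4, which was 2.58%, 1.32%, 0.772% and 0.519% of the fibroblast-like level and below the Col1a1 percentage in every library. Myelinating Schwann-like cells taken alone stood near it in libraries 1 and 2, at 2.86% and 6.01% beside 2.53% and 5.28% for Col1a1. Their levels were 239 CPM (interval 180 to 312) and 179 CPM (146 to 216). As a share of the fibroblast-like level, both intervals included the Col1a1 percentage. In library 2 the top 10% of these cells held 79.0% of the Igfbp6 UMIs.

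Igfbp7, a secreted protein of vessel walls, was highest in the cells of vessels and of the perineurium. Mural-like cells had 6363, 3379 and 2829 CPM in libraries 2 to 4, against 1279.6, 1155 and 1186 CPM in fibroblast-like cells. The ratios were 4.97, 2.93 and 2.39 in mural-like over fibroblast-like cells. Endothelial-like cells had 2796, 4822, 2964 and 1874 CPM in libraries 1 to 4, and fibroblast-like cells of library 1 had 2820.1 CPM. Perineurial-like cells had 9617 CPM in library 1.

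Glia held Igfbp7 in libraries 1 and 2 and little of it in library 4. Glia-like cells had 751, 685, 82.1 and 14.3 CPM, or 26.6%, 53.6%, 7.11% and 1.21% of the fibroblast-like level in libraries 1 to 4. Only the first 3 of these were above the Col1a1 percentage. Within library 2, myelinating Schwann-like cells had 51.0 CPM (interval 34.4 to 72.8), against 763 CPM (742 to 784) in satellite glia-like cells and 677 CPM (588 to 775) in nonmyelinating Schwann-like cells. Library 1 was different in that its myelinating Schwann-like cells had 557 CPM (465 to 662). After thinning, an Igfbp7 UMI was found in 5.34% of myelinating Schwann-like cells of library 2 and in 71.3% of its satellite glia-like cells.

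The leading binding protein differed between some classes, and within some classes between libraries. Igfbp7 made up 74.3%, 90.1%, 54.4% and 50.2% of the binding protein UMIs of endothelial-like cells in libraries 1 to 4, and 86.9%, 71.6% and 71.9% of those of mural-like cells in libraries 2 to 4. In perineurial-like cells Igfbp6 made up 59.1% and Igfbp7 37.6%. Neuron-like cells were led by Igfbp5, at 33.5% in library 2 and 81.2% in library 3. Macrophage-like cells were led by Igfbp6 in libraries 1 and 3 (49.4% and 48.5%) and by Igfbp3 in libraries 2 and 4 (64.1% and 34.5%). Their binding protein UMIs numbered 4772, 117, 134 and 368 in libraries 1 to 4. In library 4 the interval of Igfbp3 (29.7% to 39.6%) overlapped that of Igfbp4 (32.3%, 27.6% to 37.4%). Igfbp6 of these cells was 3.37% and 7.11% of the fibroblast-like level in libraries 1 and 3, beside 1.88% and 2.6% for Col1a1. How much of it was RNA of other cells was not tested. Fibroblast-like cells were led by Igfbp6 in libraries 1 and 4 (56.8% and 35.4%) and by Igfbp5 in libraries 2 and 3 (70.6% and 51.2%).

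The leading binding protein of glia varied with the library. Other glia-like cells were led by Igfbp7 in libraries 1 and 2 (57.4% and 41.4%), by Igfbp2 in library 3 (28.8%, with Igfbp7 at 26.9%) and by Igfbp5 in library 4 (48.0%). Myelinating Schwann-like cells were led by Igfbp7 in libraries 1 and 3 (56.4% and 34.5%) and by Igfbp5 in libraries 2 and 4 (41.7% and 47.3%). In library 2 the Igfbp5 interval (35.8% to 47.8%) overlapped that of Igfbp6 (38.7%, 32.9% to 44.8%). In library 3 the Igfbp7 interval (25.9% to 43.9%) overlapped that of Igfbp5 (23.3%, 15.9% to 32.0%). The leader in these cells was therefore not resolved in libraries 2 and 3. Igfbp2 made up 22.3% in other glia-like cells of library 2 and 1.11% in its myelinating Schwann-like cells.

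**Figure D4:**
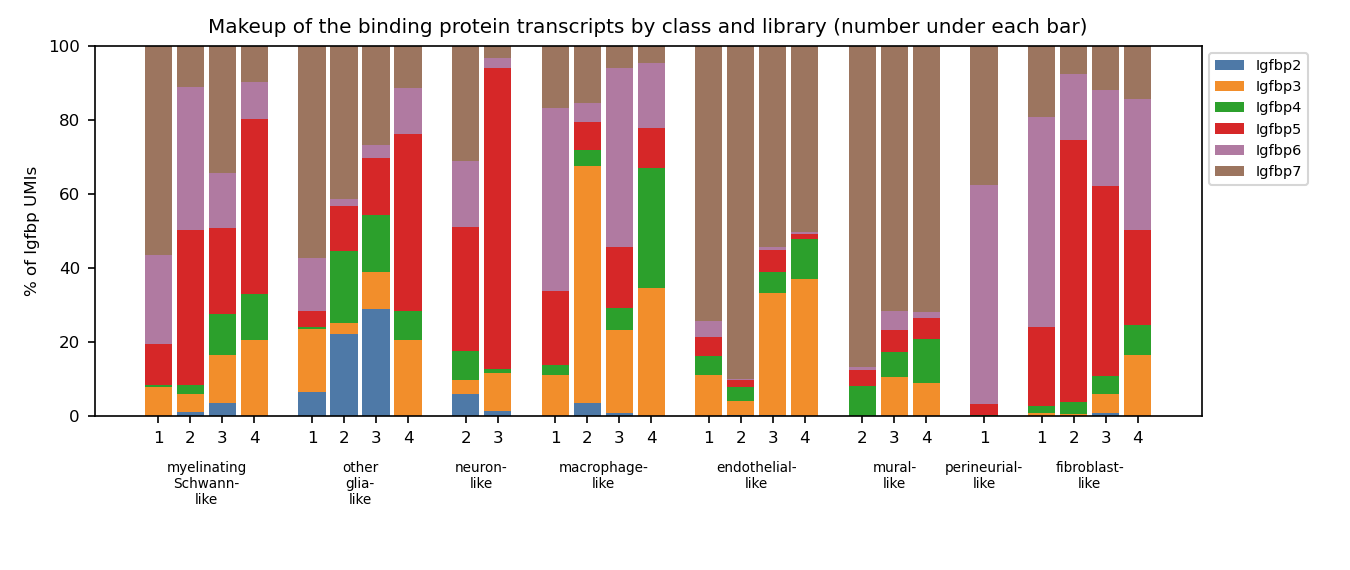
Stacked bars give each binding protein as a percentage of all UMIs of the 6 Igfbp members, by cell class and library. Igfbp7 takes 50.2% to 90.1% of the bars of endothelial-like cells and 71.6% to 86.9% of those of mural-like cells, while the leading protein of the fibroblast-like bars is Igfbp6 in libraries 1 and 4 and Igfbp5 in libraries 2 and 3.

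Set against all genes, the members were mostly lower in glia than in fibroblast-like cells. A gene was measured in a comparison if it had at least 20 UMIs on 1 side and, where the other side had fewer than 3 UMIs, a level above the one that 3 UMIs give there. Past 2-fold means a ratio of CPM of 2 or more either way, with fewer than 3 UMIs on a side counted as 3. In myelinating Schwann-like against fibroblast-like cells, 6 of 8, 9 of 9, 9 of 10 and 9 of 10 measured members were past 2-fold in libraries 1 to 4, all of them lower. Of all genes, 41.5%, 32.6%, 30.2% and 35.5% were past 2-fold in the same comparisons. Igf2r had log2 ratios of -2.88, -3.04, -3.50 and -3.98, and Igfbp6 of -5.13, -4.06, -6.89 and -7.80. The exceptions were Igf2 and Igfbp3 in library 1 and Igf1r in libraries 3 and 4, which stayed within 2-fold. Igf2 had 1 UMI in myelinating Schwann-like cells of library 1, where 3 UMIs give 13.1 CPM. Its fibroblast-like level there was 22.2 CPM. Igf1r had 0 UMIs in myelinating Schwann-like cells of library 3, where 3 UMIs give 3.74 CPM. With the floor of 3 UMIs neither could be called past 2-fold lower, so these calls do not show how much lower the genes were.

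In other glia-like against fibroblast-like cells, 10 of 10, 7 of 9, 7 of 10 and 9 of 10 measured members were past 2-fold in libraries 1 to 4, beside 42.5%, 30.5%, 28.3% and 32.5% of all genes. Of these, 3 were higher in library 1, 1 in library 2 and 0 in libraries 3 and 4. The higher ones were Igfbp2, Igfbp3 and Igf1r (5 UMIs) in library 1 and Igfbp2 in library 2. The log2 ratio of Igfbp2 was 6.46 (interval 5.90 to 7.02) for library 1, 5.17 (4.67 to 5.72) for library 2, 0.86 for library 3 and -4.73 for library 4. In library 1 it rested on 3 cells led by satellite glia markers (42 UMIs) and 1 other cell (9 UMIs), so it does not describe other glia-like cells at large.

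In myelinating Schwann-like against other glia-like cells, 3 of 6, 6 of 8, 6 of 6 and 1 of 9 measured members were past 2-fold in libraries 1 to 4, beside 11.9%, 24.1%, 18% and 9.16% of all genes. All but 2 were lower in myelinating Schwann-like cells, the exceptions being Igfbp6 in library 2 (log2 ratio 2.51, interval 2.17 to 2.83) and Igf2r in library 4 (1.04, 0.85 to 1.23). The Igfbp6 exception rested on few cells. A UMI was found in 24.5% of the myelinating Schwann-like cells of library 2, and the top 10% of them held 79.0% of the UMIs. Their Igfbp6 level was 6.01% of the fibroblast-like one, beside 5.28% for Col1a1. How much of this Igfbp6 was RNA of other cells was not tested. Igfbp4 had log2 ratios of -4.83 in library 2 and -2.20 in library 3, and Igfbp7 of -3.82 and -1.39. Igfbp2 had 0 UMIs in myelinating Schwann-like cells of library 1, at least 7.17-fold lower than in its other glia-like cells. Of the 51 UMIs on that other side, 42 came from 3 cells and 9 from 1 cell.

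In endothelial-like against fibroblast-like cells, 6 of 9, 7 of 9, 9 of 10 and 6 of 10 measured members were past 2-fold in libraries 1 to 4, beside 40.8%, 34.4%, 33.5% and 30.3% of all genes. Igfbp3 had log2 ratios of 1.95, 1.08, 1.87 and 0.03, and Igfbp6 of -5.66, -7.76, -5.89 and -6.87. In mural-like against fibroblast-like cells the counts were 6 of 9, 6 of 10 and 6 of 10 in libraries 2 to 4, beside 29.2%, 20.7% and 22.9%. Igfbp7 was higher in each of the 3 libraries, and Igfbp3 in library 2, at 0 UMIs, was at least 19.3-fold lower in mural-like cells.

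In macrophage-like against fibroblast-like cells, 7 of 10, 6 of 9, 9 of 10 and 9 of 10 measured members were past 2-fold in libraries 1 to 4, beside 43.5%, 32.9%, 34.5% and 39.3% of all genes. All were lower except Igf1r in library 3, which rested on 4 UMIs. Igf1 had the log2 ratios -0.90, -1.75, -0.92 and -1.33. In neuron-like against glia-like cells the counts were 7 of 9 and 8 of 10 in libraries 2 and 3, beside 53.7% and 49.2%. Igfbp5 changed side between these libraries, with a log2 ratio of -1.48 (interval -1.55 to -1.40) in library 2 and 3.44 (3.10 to 3.81) in library 3, while Igf2r was higher in neuron-like cells of both (2.74 and 1.11). Over all genes the median log2 ratio of a comparison lay between -0.25 and 0.47. Centring used the median of genes with at least 20 UMIs on both sides, which lay between -0.32 and 0.64. It moved no count of members by much, but a small change of a count was not marked, so members near 2-fold may have crossed it.

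**Figure D5:**
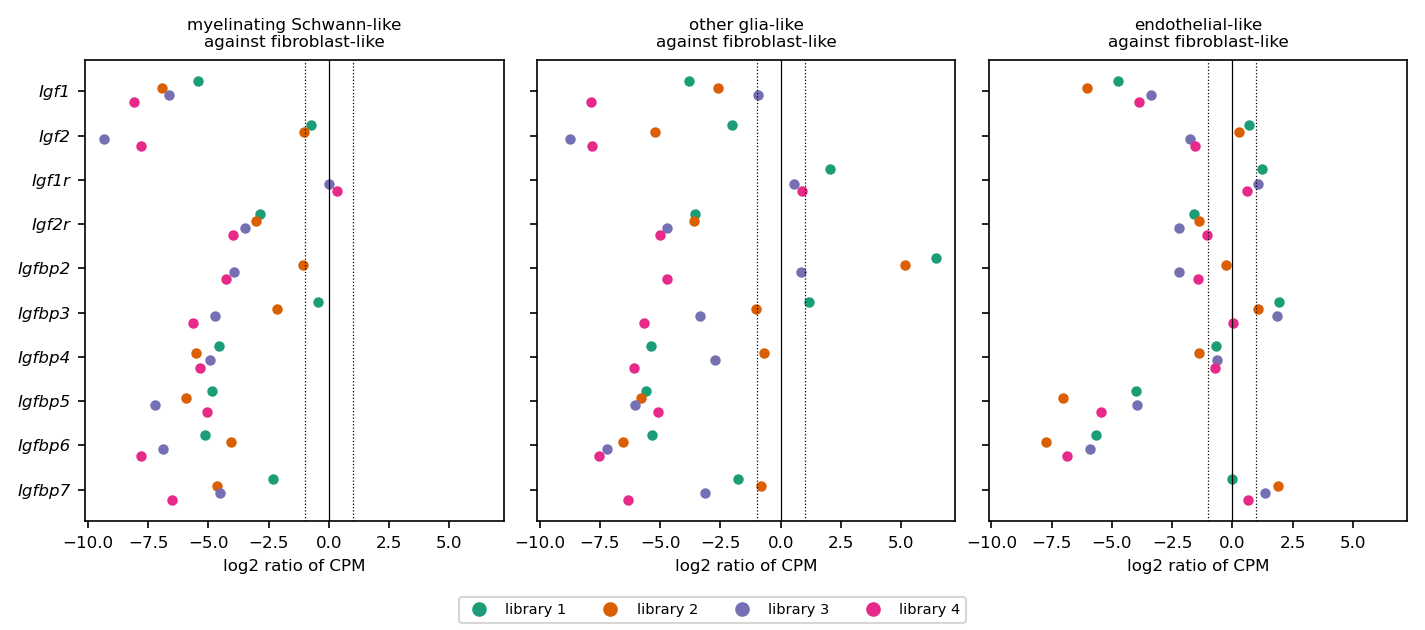
Points give the log2 ratio of CPM of each measured member, in 3 panels for myelinating Schwann-like, other glia-like and endothelial-like cells against fibroblast-like cells, coloured by library, with dotted lines at 2-fold. Nearly all points of the first panel lie below 0, Igfbp2 reaches 6.46 and 5.17 in libraries 1 and 2 of the second, and Igfbp3 lies between 0.03 and 1.95 in the third. The Igfbp2 point of library 1 in the second panel rests on 51 UMIs, 42 of them in 3 cells.

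Genes downstream of the receptors were read from a list of 35 insulin and IGF signalling genes, 34 of them found, and genes that act beside the ligands from a list of 25 partners, 22 of them found. In myelinating Schwann-like against fibroblast-like cells, 7, 5, 1 and 5 signalling genes were higher and 5, 6, 5 and 4 lower of 24, 26, 31 and 34 measured in libraries 1 to 4. That was 50%, 42.3%, 19.4% and 26.5% past 2-fold, on both sides of the share of all genes. Of the partners, 1, 1, 1 and 3 were higher and 4, 6, 5 and 6 lower of 10, 10, 13 and 15 measured, or 50%, 70%, 46.2% and 60% past 2-fold, beside 41.5%, 32.6%, 30.2% and 35.5% of all genes.

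Grb10, an adaptor that dampens signalling from insulin and IGF receptors, had 5.1, 16.2 and 43.0 CPM in myelinating Schwann-like cells of libraries 2 to 4, against 116, 202 and 349 CPM in fibroblast-like cells. Mapk3, a kinase of the MAP kinase cascade, was higher in myelinating Schwann-like cells of every library, with log2 ratios of 1.64, 1.54, 1.62 and 1.58. Plagl1, an imprinted transcription factor, had 6.8, 7.47 and 7.53 CPM in myelinating Schwann-like cells of libraries 2 to 4 and 176, 660 and 974 CPM in fibroblast-like cells. In endothelial-like against fibroblast-like cells, Sgk1, a kinase activated through PI3 kinase, had log2 ratios of 1.81, 2.38, 3.04 and 1.64 and Irs2, a docking protein of the receptors, of -2.74, -3.10, -1.88 and -1.25. In neuron-like against glia-like cells, Htra1, a secreted protease that cleaves binding proteins, had log2 ratios of -4.15 and -5.18 in libraries 2 and 3.

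The genes whose levels followed a member most closely were taken over 26 units of 1 class in 1 library, among 11666 genes. The units share libraries and depth, so the Spearman correlations are descriptions. Igfbp6 was followed by Dcn (0.94), C1s (0.93) and Lum (0.91), of which Dcn and Lum had served to name fibroblast-like cells. Igfbp7 was followed by Vtn (0.92) and Tmem204 (0.90), Igfbp4 by Emilin1 (0.90), Igfbp3 by Mdfi (0.89) and Igf2r by Ankrd37 and Scara3 (both 0.86). Igfbp2 was followed by Cdh15 (0.85) and Fabp7 (0.84), and Fabp7 was a marker used to name satellite glia-like cells. Igf2 was followed by AABR07042514.3 (0.85) and Dlk1 (0.84), Igf1 by Colec12 (0.82), Igf1r by Rfc5 (0.84) and Igfbp5 by C1qtnf2 (0.85). Among pairs of members, Igf2 and Igfbp3 had the highest correlation (0.75), Igf1 and Igf2 had 0.29, and Igf1r and Igfbp2 the lowest (-0.26).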

How the data were processed

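Droplet 3′ libraries of 4 groups, 1 each, were deposited as 1 table of whole-number UMI counts per gene and barcode, made with Cell Ranger 3.1.0 per the file headers. CASAVA 1.8, Seurat and the build Rnor_6.0 are named per the submitters' processing notes, and the role of each is not given in the sources used here. Barcode numbers were not assigned to groups, and the 4 libraries held 74425958, 81920125, 97572003 and 82252902 UMIs in order.

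From the deposited counts, 8269 barcodes with under 500 genes or over 20% mitochondrial UMIs were removed. Each cell was scored for 16 classes with 130 of 137 markers found, as the mean of marker levels capped at their 95th percentile, and needed 3 detected markers and a lead of 0.1. No doublet caller was run; the lead drops cells with mixed markers, and an alternative left out the 5% of cells with the most UMIs. Erythroid-like cells had Col1a1 at 18.2% and 10.1% of the fibroblast-like level in libraries 3 and 4 and are not described. Whether this was RNA of other cells was not tested. Counts were summed per class and library, and sides of at least 20 cells were compared inside a library as ratios of CPM, with a floor of 3 UMIs and intervals for counting error only. PCR copies were collapsed by UMI. Shares of cells were given unthinned and with each cell thinned to 2000 UMIs. No test was run, since each group had 1 library.

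All members were named, and of the signalling and partner lists, up to 6 genes per comparison that were past 2-fold the same way in every library, by summed UMIs, of which the text gives some. Irs4, Pappa, Tmem219 and H19 were not matched in the gene table. The genes most like a member were the 5 with the highest Spearman correlation of log2(CPM + 1), of which the text gives the first ones. The members and lists were chosen with earlier results of these data known, and the scoring rule and the subsets of classes were set after values had been seen. Promoter windows came from RefSeq on GRCr8, and all 10 members matched, with 11 windows. The work used scipy 1.17.1, numpy 2.4.6, matplotlib 3.10.9 and pandas 2.3.3 under Python 3.11.15, and the ratios and intervals were tested on simulated data.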

Additional observations from a re-analysis of the deposited data

How the results depend on the processing

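No paired analysis was possible because each group had 1 library and no test was run. Of 1778 log2 ratios of members over 230 results and the alternatives, 1458 stayed inside the interval of the main value and 319 moved outside it. Sign changes of ratios within 2-fold in the main setting were not counted apart from these. The remaining 1, past 2-fold in the main setting, changed sign. That one was Igfbp3 in other glia-like against fibroblast-like cells of library 2, at 0.64 with at most 10% mitochondrial UMIs and -1.02 with 20%. The count of members past 2-fold in myelinating Schwann-like against other glia-like cells was 1 in place of 3 in library 1 with at most 10% mitochondrial UMIs, without the top 5% of cells by UMIs, and after thinning. In library 4 the same count was 0 in place of 1 with at most 10% mitochondrial UMIs and after thinning, and 2 with a lead of 0.2, an alternative chosen after seeing the data. With at most 10% mitochondrial UMIs, Igfbp7 made up 61.0% and 54.9% of binding protein UMIs in other glia-like cells of libraries 1 and 2. With at least 1000 genes, library 3 had 22.2% Igfbp2 in other glia-like cells, and 88.8% Igf2 among ligand UMIs and 55.7% Igfbp5 in fibroblast-like cells. Without the top 5% of cells, other glia-like cells of library 1 had 66.6% Igfbp7, and fibroblast-like cells had 55.4% Igfbp6 in library 1, 72.6% Igfbp5 in library 2, and 46.1% Igfbp5 and 85.3% Igf2 in library 3. With a lead of 0.2, other glia-like cells had 40.5% Igfbp7 in library 2, 22.5% Igfbp2 in library 3 and 49.5% Igfbp5 in library 4, and fibroblast-like cells had 72.0% Igfbp5 in library 2, 59.5% Igfbp5 and 89.7% Igf2 in library 3 and 35.0% Igfbp6 in library 4. The cause was not tested for any of these. Low counts limit Igf1r, so that its leading class could not be read in any library. The small number of cells, 21, limits all members in satellite glia-like cells of library 3.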
